A study of Mus musculus with 3 samples.

Results

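The genes described here are those of the mouse ubiquitin-conjugating (Ube2) and F-box (Fbxl, Fbxo and Fbxw) families, chosen by symbol in the 2 deposited expression tables. The rule took 88 of 15058 genes, 31 of them Ube2 genes and 57 F-box genes, and left out 5 relatives (Ube2o, Ube2h, Ube2l6, Fbxo7 and Fbxo9). Measured values played no part in the choice. Attachment of ubiquitin to a protein runs through an activating enzyme (E1), a conjugating enzyme (E2) that carries the charged ubiquitin, and a ligase (E3) that selects the substrate. F-box proteins are the substrate receptors of the SCF ligases, in which they dock through Skp1 on the cullin Cul1. Fbxl proteins carry leucine-rich repeats, Fbxw proteins carry WD40 repeats, and Fbxo proteins carry other domains. Terminal red-cell maturation is known for heavy use of the ubiquitin system, which removes proteins and organelles that the red cell does not keep.

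RNA was sequenced from erythroblasts, the nucleated precursors of red cells, sorted from the blood of E10.5 mouse embryos, with 5 embryos pooled for a preparation. The control library held CD71+ Ter119-high cells of embryos labelled Drosha fl/fl or Drosha fl/+, with wild-type Drosha abundance. The Drosha-null library held CD71+ Ter119-high cells of Drosha fl/fl;cdh5-cre+ embryos, and Drosha is null there by its label. The Ter119-low library held CD71+ Ter119-low cells of embryos with that same cKO genotype, and its label puts Drosha abundance at the wild-type level. CD71 is the transferrin receptor, and Ter119 is a red-cell antigen gained with maturation. Drosha makes the first cut in microRNA production. Its floxed allele, which all 3 libraries share in at least 1 copy by their labels, was deleted in the cKO embryos with a Cre driven by Cdh5, an endothelial gene. The gate of the Ter119-low library differs from that of the control, so genotype and gate cannot be told apart in that comparison.

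Each of the 3 groups had 1 library, so pools of a group could not be compared with each other, and no test across conditions was made. Unless stated otherwise, runs of 3 values follow the order control, Drosha-null, Ter119-low. The libraries held 9325814 to 9497425 counts over 13277 to 13894 detected genes. Drosha had 324, 122 and 244 counts, so the last was below the control although its label equates them. Counts over the whole Drosha gene also include reads outside a deleted part. The 10 erythroid markers were detected in every library, with 25.3%, 17.3% and 23.5% of the counts. The 8 endothelial markers summed to 9.05, 19.6 and 8.42 CPM (counts scaled to library size), with 0 of them at 0 counts. The 6 heart muscle markers summed to 8.93, 25.8 and 6.06 CPM, with 1, 2 and 3 of them at 0. The 9 macrophage markers summed to 3.69, 3.23 and 0.674 CPM, the 7 of megakaryocytes to 13.8, 19.3 and 16.8 CPM, and the 6 of blood progenitors to 8.33, 8.17 and 5.61 CPM. Of 4 mast and granulocyte markers 1 was listed, at 0.714, 2.06 and 0 CPM. The part of other cells in the values below was not tested. In sorted bulk cells, fewer cells of a type and less RNA per cell cannot be told apart.

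Ratios are on the log2 scale and compare counts after TMM scaling, which centres the bulk of the genes, with 0.5 counts added. They carry 95% Clopper-Pearson intervals that cover counting error only. A gene was measured in a comparison if it reached 1 CPM in either library, and it was called higher or lower if it differed at least 2-fold and its interval excluded 1. Of the 88 genes 75 were measured in the Drosha-null comparison with the control, 72 in that of the Ter119-low library, and 74 between the cKO libraries. The other 13, Fbxl8, Fbxl16, Fbxo15, Fbxo16, Fbxo17, Fbxo24, Fbxo27, Fbxo41, Fbxo43, Fbxo47, Ube2d2b, Ube2e2 and Ube2ql1, were measured in none and had 0 to 8 counts in any library. Together the 88 genes took 2687.8, 2616.6 and 2647.8 CPM in the 3 libraries. By TMM their sums were thus close. As a share of total counts they took 0.238%, 0.313% and 0.250%, so by that scaling the Drosha-null library was the highest.

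The most abundant of these genes per length was Ube2c, the E2 that places the first ubiquitin on substrates of the anaphase-promoting complex (APC/C), the ligase of mitotic exit. It had 151.84, 304.61 and 163.33 FPKM (counts set against gene length and library size). The next by control FPKM were Ube2v1 at 90.23, a partner of the E2 Ube2n that lacks the catalytic cysteine, and Ube2s at 82.18, which extends the chains that Ube2c starts. They were followed by the broadly acting Ube2d3 at 66.64. Highest among the F-box genes were Fbxo22 at 21.13, which is known to target the heme-sensing repressor Bach1, and Fbxo5 at 15.90, an inhibitor of the APC/C. Below these came Fbxo3 at 14.30, Fbxw2 at 13.12 and Fbxo6 at 9.99. The median control level was 13.08 FPKM over the 28 measured Ube2 genes and 3.09 over the 47 measured F-box genes. The receptors were thus mostly scarcer than the enzymes they work with, and small F-box counts limit their intervals.

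In the Drosha-null library 6 of the 75 measured genes were called higher than in the control, Fbxl4, Fbxw17, Fbxo36, Fbxo10, Fbxo11 and Ube2w. Another 5 were called lower, Fbxo2, Ube2f, Ube2cbp, Fbxo44 and Fbxw4. These are 8.0% and 6.67% of the measured genes, beside 12.4% and 7.79% of all 10769 genes measured. The share called was thus no larger than the background in either direction. The median ratio was −0.09, with 32 genes above 0 and 43 below, beside a median of −0.02 over all genes. Scaling by total counts moved the median of all genes to 0.43, and a ratio below 0 by less than this shift then turned positive. It gave 15 genes called higher and 2 lower (background 23.0% and 2.7%) and a median of 0.35, still below that of all genes. All 6 higher calls and the lower calls of Fbxo2 and Ube2f were kept under that scaling, while Ube2cbp, Fbxo44 and Fbxw4 were no longer called.

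**Figure D1:**
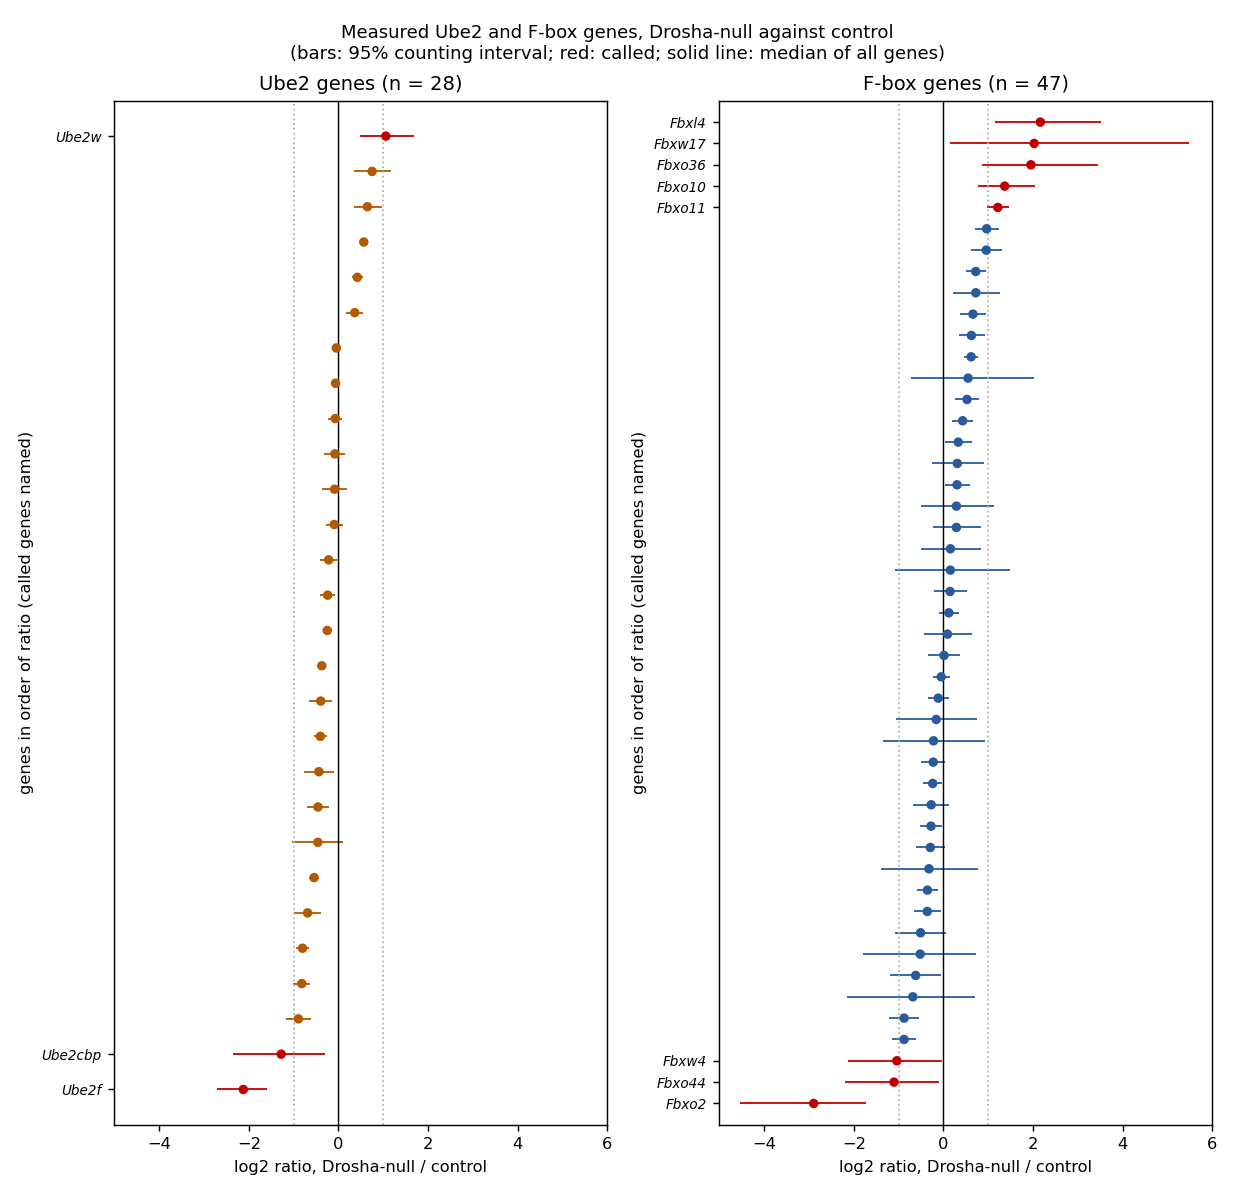
Log2 ratio, Drosha-null over control, of the 28 Ube2 (left, orange) and 47 F-box genes (right, blue) measured, each a point with its 95% counting interval, with called genes in red and named, dotted lines at 2-fold and a solid line at the median of all genes (−0.02). The F-box genes spread from −2.90 (Fbxo2) to 2.16 (Fbxl4), and 22 of the 28 Ube2 genes lie below 0, although by total counts 18 of the 28 lie above it.

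The F-box gene with the largest increase was Fbxl4 (gene 269514, chromosome 4, 22357543 to 22434091, plus strand, GRCm38), a mitochondrial F-box protein known to restrain removal of mitochondria through Bnip3 and Bnip3l. It had 8, 50 and 14 counts, or 0.35, 2.22 and 0.62 FPKM. The Drosha-null library stood above both others, 4.48-fold above the control (interval 2.22 to 11.5) and 2.78-fold above the Ter119-low library. The log2 ratio of the Ter119-low library to the control was 0.69 (interval −0.63 to 2.18), which includes 0.

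Fbxo10 (gene 269529, chromosome 4, 45034247 to 45084604, minus strand), a receptor known to target the survival protein Bcl2, had 28, 97 and 15 counts. Its log2 ratio to the control was 1.37 (0.77 to 2.05) in the Drosha-null library and −0.96 (−2.0 to −0.03) in the Ter119-low library. The Ter119-low value rests on 15 against 28 counts, and by total counts it was −0.87 with an interval that includes 0 (−1.90 to 0.07). The cKO libraries differed from each other by a log2 ratio of 2.33 (1.58 to 3.26). The lower value of the Ter119-low library stayed under the 2-fold rule. Fbxo36 (gene 66153, chromosome 1, 84839841 to 84900487, plus strand) had 7, 38 and 5 counts. Its ratio to the control was 1.95 (0.85 to 3.44) in the Drosha-null library, which alone stood high.

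Fbxo11 (gene 225055, chromosome 17, 87990859 to 88065291, minus strand) is the receptor that targets the repressor Bcl6. It was the most abundant of the genes called higher, with 182, 561 and 279 counts. Its log2 ratio to the control was 1.21 (0.97 to 1.47) in the Drosha-null and 0.53 (0.26 to 0.81) in the Ter119-low library. Its exons overlap those of Msh6 on the other strand in GENCODE, and whether the counting used strand is not given in the sources used here. Fbxw17 (gene 109082, chromosome 13, 50417864 to 50433780, plus strand) had 2, 13 and 2 counts, and its ratio of 2.03 had an interval of 0.15 to 5.48. It was no longer called with 5 counts added.

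Ube2w (gene 66799, chromosome 1, 16540790 to 16619489, minus strand), an E2 known for placing ubiquitin on the amino terminus of proteins, was the one Ube2 gene called higher. It had 33, 92 and 46 counts, and its ratio of 1.06 (0.48 to 1.69) fell under the 2-fold rule with 5 counts added. Its exons also overlap an opposite-strand gene, Gm38342.

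The largest decrease was that of Fbxo2 (gene 230904, chromosome 4, 148160621 to 148166424, plus strand), which binds high-mannose glycans of misfolded glycoproteins. It had 36, 6 and 19 counts. The control was 7.45-fold above the Drosha-null library (interval 3.32 to 23.1), and the Ter119-low library lay between them with a log2 ratio to the control of −0.99 (−1.89 to −0.17). Its relatives Fbxo44 and Fbxo6 lie beside it, from 148152800 to 148160482 and from 148145716 to 148152140, both on the minus strand. Fbxo44 (gene 230903) had 23, 14 and 23 counts and a Drosha-null ratio of −1.10 (−2.20 to −0.10). Fbxo6 had 112, 150 and 135 counts and a ratio of 0.01 (−0.35 to 0.38). Within a library, where no scaling enters, the counts of Fbxo2 per count of Fbxo6 were 0.321, 0.0400 and 0.141. The intervals of the control (0.214 to 0.472) and Drosha-null library (0.0145 to 0.0891) do not overlap. For Fbxo44 per count of Fbxo6 the values were 0.205 (0.125 to 0.324), 0.0933 (0.0498 to 0.162) and 0.170 (0.104 to 0.266), with intervals that overlap. Fbxo2 thus differed from its neighbour Fbxo6, and for Fbxo44 the counts leave this unresolved.

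Ube2f (gene 67921, chromosome 1, 91250304 to 91290337, plus strand) charges the ubiquitin-like protein Nedd8 for the cullin Cul5, working with the RING protein Rnf7. It had 126, 38 and 102 counts, or 10.23, 3.15 and 8.36 FPKM. The Drosha-null library alone was low, at a log2 ratio of −2.12 (−2.70 to −1.60), against −0.39 in the Ter119-low library. Ube2m, the Nedd8 E2 that serves the other cullins with Rbx1, had 150, 147 and 128 counts and a Drosha-null ratio of −0.44 (−0.77 to −0.10). The counts of Ube2f per count of Ube2m were 0.840, 0.259 and 0.797. The Drosha-null interval (0.176 to 0.372) lies below those of the control (0.658 to 1.07) and the Ter119-low library (0.608 to 1.04). Of the genes these E2s work with, Rnf7 was also called lower (413, 262 and 394 counts, ratio −1.06, −1.29 to −0.84). Nedd8 itself had 444, 313 and 443 counts and a ratio of −0.91 (−1.13 to −0.70), and Cul5 a ratio of 0.25 (0.06 to 0.45). Rnf7 was not called by total counts, and Nedd8 stayed within 2-fold.

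The remaining lower calls were Ube2cbp and Fbxw4. Ube2cbp (gene 70348, chromosome 9, 86307306 to 86464950, minus strand) is, despite its symbol, a ligase-like protein that binds Ube2c and no E2. It had 26, 14 and 14 counts and ratios of −1.28 (−2.35 to −0.31) and −0.95 to the control, so both cKO libraries were at the same count. Fbxw4 (gene 30838, chromosome 19, 45578254 to 45660312, minus strand) had 22, 14 and 15 counts and a ratio of −1.04 (−2.14 to −0.03). Both of these calls, and that of Fbxo44, rest on 14 counts in the Drosha-null library.

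**Figure D2:**
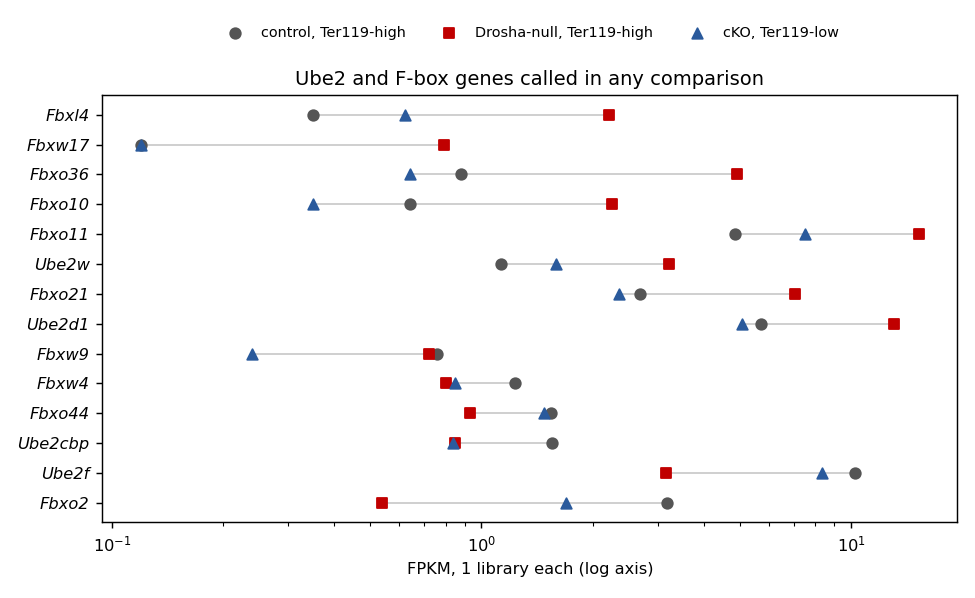
FPKM on a log axis of the 14 Ube2 and F-box genes called in any of the 3 comparisons, with 1 point for each library (circle control, square Drosha-null, triangle Ter119-low). The Drosha-null point is the highest for the top 8 genes and the lowest or level with the lowest for the bottom 5, while Fbxw9 is low in the Ter119-low library.

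By role, the Ube2 genes had a median Drosha-null ratio of −0.25 to the control, which turned to 0.19 by total counts. Relative to the median of all genes it was below in both scalings (−0.02 and 0.43). For the F-box genes the median was 0.12, and 0.55 by total counts, above that of all genes in both. With each ratio taken against genes of like length, the medians were −0.21 and 0.02. Of the 28 Ube2 genes 1 was called higher and 2 lower, and of the 47 F-box genes 5 and 3, beside 12.4% and 7.79% of all genes. By total counts these were 3 and 1 of the Ube2 genes and 12 and 1 of the F-box genes, beside 23.0% and 2.7%. Between the cKO libraries the medians were −0.14 and 0.17, a comparison that shares the Drosha-null library with the first. In the Ter119-low library they were −0.00 and −0.01 against the control.

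The APC/C enzymes moved apart. Ube2c had 1246, 2446 and 1326 counts, a Drosha-null ratio of 0.57 (0.47 to 0.67). Ube2s had 719, 721 and 680 counts and a ratio of −0.40 (−0.55 to −0.25), so the raw counts of Ube2s were nearly equal. The counts of Ube2c per count of Ube2s were 1.73 (1.58 to 1.90), 3.39 (3.12 to 3.69) and 1.95 (1.78 to 2.14). This ratio needs no scaling, and the Drosha-null interval lies above both others. The APC/C inhibitor Fbxo5 had 265, 191 and 256 counts and a ratio of −0.88 (−1.16 to −0.61). Ube2c was within 2-fold by TMM and was called by FPKM and against genes of like length. Its counts are fractional in places and its exons overlap Tnnc2 on the other strand, and those of Ube2s overlap Rpl28. Among 15 measured APC/C subunits and activators 0 were called higher and 2 lower, Anapc11 at −1.15 and Cdc26 at −1.31, with a median of −0.03. The activators Cdc20 (0.72) and Fzr1 (0.75) were within 2-fold. By total counts the calls turned around, with Cdc20 and Fzr1 called higher and 0 lower, beside 23.0% and 2.7% of all genes (12.4% and 7.79% by TMM).

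All 6 E2s of DNA repair and chromatin were below 0 in the Drosha-null library, with a median of −0.25 and 0 called, and values under the scaling shift turned positive by total counts. Ube2n, which builds lysine-63 chains, was the lowest, with 961, 731 and 932 counts and a ratio of −0.80 (−0.94 to −0.66). Its partner Ube2v1 had 1616, 2074 and 1696 counts and a ratio of −0.05 (−0.14 to 0.05), and Ube2v2 a ratio of −0.09. The counts of Ube2n per count of Ube2v1 were 0.595, 0.353 and 0.550 in the 3 libraries, with the Drosha-null interval (0.324 to 0.384) below the others. Ube2v1 shares exons with the read-through gene Gm20431 on its own strand. The Rad6 enzymes Ube2a and Ube2b, which act on histone H2B and PCNA, had ratios of −0.09 (−0.36 to 0.19) and −0.40 (−0.66 to −0.13). Ube2t, the E2 of the Fanconi anaemia pathway, had 55, 53 and 47 counts and a ratio of −0.46 (−1.03 to 0.11).

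The E2s of broad use also differed among themselves. Of the near relatives Ube2d1, Ube2d2a and Ube2d3, Ube2d1 had 75, 168 and 66 counts and a Drosha-null ratio of 0.75 (0.36 to 1.17), while Ube2d2a had −0.07 and Ube2d3 −0.25 (−0.35 to −0.15). These near copies have whole deposited counts, so no split reads are seen in them. How reads that fit more than 1 copy were counted is not known. Ube2l3, which passes ubiquitin to HECT and RBR ligases, had 1315, 1196 and 1491 counts and a ratio of −0.54 (−0.66 to −0.43). Ube2r2, a Cdc34 relative that extends chains on SCF substrates, had 507, 381 and 571 counts and a ratio of −0.82 (−1.02 to −0.62). Cdc34 itself had 946, 643 and 915 counts and a ratio of −0.96 (−1.11 to −0.82). Both SCF chain-building E2s were thus lower within 2-fold in the Drosha-null library, and Ube2r2 was near the control in the Ter119-low library (0.09).

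Of the 3 E2s that act in endoplasmic reticulum quality control, Ube2j1 had 962, 1709 and 1032 counts and a ratio of 0.42 (0.31 to 0.54). Ube2j2 had 265, 189 and 236 counts and a ratio of −0.89 (−1.17 to −0.62), and Ube2g2 a ratio of −0.69 (−0.99 to −0.39). The counts of Ube2j1 per count of Ube2j2 were 3.63 (3.17 to 4.18), 9.04 (7.78 to 10.6) and 4.37 (3.79 to 5.06). Ube2e1 per count of its relative Ube2e3 likewise gave 0.233, 0.432 and 0.289, with the Drosha-null interval (0.373 to 0.501) above the others. The counts of Ube2j2 are fractional in places, and exons of Ube2e1 overlap Nkiras1 on the other strand. All gene pairs given as counts of one per count of another were chosen after their values were seen.

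**Figure D3:**
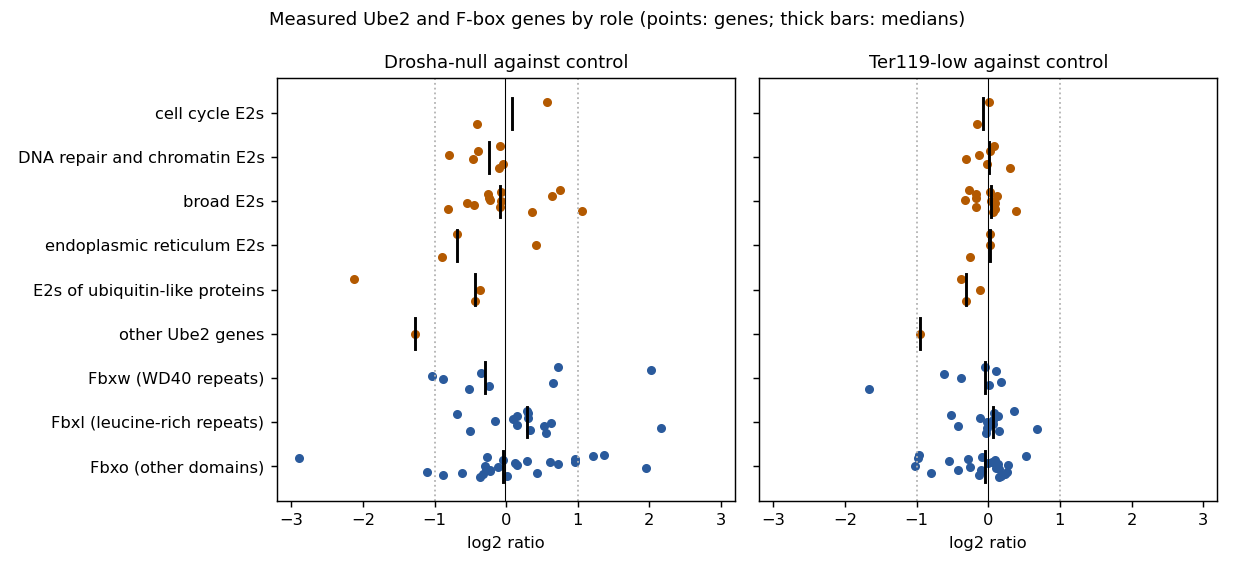
Log2 ratio to the control of the measured genes by role, each gene a point and each thick bar a median, for the Drosha-null (left) and the Ter119-low library (right), with dotted lines at 2-fold. The spread is wider in the Drosha-null library, from −2.90 to 2.16, than in the Ter119-low library, from −1.67 to 0.69, and total-count scaling moves the left panel up, where the Ube2 median of −0.25 becomes 0.19.

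Among F-box genes by class, the 14 measured Fbxl genes had a median Drosha-null ratio of 0.30, with 11 above 0 and 1, Fbxl4, called. The 25 Fbxo genes had a median of −0.05 with 3 called higher and 2 lower, and the 8 Fbxw genes a median of −0.30 with 1 called in each direction. The Fbxo and Fbxw medians turn positive by total counts. Fbxl5, the iron sensor that directs breakdown of the regulator Ireb2, had 151, 252 and 178 counts and a ratio of 0.33 (0.03 to 0.63). Ireb2 itself had 785, 1132 and 792 counts and a ratio of 0.12 (−0.01 to 0.25).

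Fbxw7, the receptor of cyclin E, Myc, Jun and Notch, had 143, 300 and 172 counts and a Drosha-null ratio of 0.66 (0.37 to 0.96). Fbxw11, the β-TrCP form that targets β-catenin and IκBα, had 243, 532 and 249 counts and a ratio of 0.72 (0.50 to 0.95). Its close relative Btrc had 529, 686 and 503 counts and a ratio of −0.03 (−0.20 to 0.13). The counts of Fbxw11 per count of Btrc were 0.459, 0.776 and 0.495, and the Drosha-null interval (0.691 to 0.870) lies above both others. Fbxw7 and Fbxw11 were within 2-fold by TMM, and both were called higher by total counts.

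Fbxo21 and Fbxo28 were just under the 2-fold rule against the control. Fbxo21 had 98, 253 and 85 counts and a ratio of 0.96 (0.62 to 1.31), and Fbxo28 had 172, 446 and 189 counts and a ratio of 0.96 (0.71 to 1.23). On chromosome 5, Fbxo21 (117976730 to 118010201, plus strand) lies near Fbxw8 (118064965 to 118155464, minus strand). Fbxw8 had 348, 391 and 371 counts and a ratio of −0.24 (−0.45 to −0.03), so these neighbours differed. The abundant Fbxo3 had 504, 1026 and 532 counts and a ratio of 0.62 (0.46 to 0.77). For Fbxo22 the counts were 412, 528 and 465 and the ratio −0.05 (−0.24 to 0.14), and for Fbxw2 they were 312, 323 and 358 with a ratio of −0.36 (−0.59 to −0.13). Counts of Fbxo22, Ube2c and 6 other genes are fractional. Exons of Fbxo3, Fbxo22, Fbxl5 and 22 others overlap another gene.

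In the Ter119-low library 0 of 72 measured genes were called higher than in the control and 1 lower, beside 2.9% and 2.76% of 10591 genes. No test across libraries lies behind the 0: the intervals, which cover counting alone, excluded 1 for 3 genes above and 11 below the control. The median was −0.01 (0.00 over all genes). The gene called lower was Fbxw9 (gene 68628, chromosome 8, 85060055 to 85067124, plus strand), with 13, 12 and 4 counts and a ratio of −1.67 (−3.86 to −0.09). By total counts 0 genes were called either way (background 3.35% higher and 2.12% lower). The exons of Fbxw9 overlap A230103J11Rik on the other strand. In the Drosha-null library, of similar depth, intervals by TMM excluded 1 for 22 genes above the control and 25 below. The shares of all genes with such intervals were not computed for either library. By total counts 56 of the 75 Drosha-null ratios were above 0, against 32 by TMM. Both comparisons share the control library.

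Between the cKO libraries 6 genes were called higher in the Drosha-null library and 3 lower of 74 measured, beside 10.8% and 5.94% of 10795 genes. By total counts they were 13 and 2 (background 18.7% and 2.79%). The higher genes were Fbxo36, Fbxo10, Fbxw17, Fbxl4, Fbxo21 (1.25, 0.89 to 1.62) and Ube2d1 (1.02, 0.61 to 1.46), and the lower ones Fbxo2 (−1.91), Ube2f (−1.74) and Fbxo44 (−1.02). Of these, Fbxo36, Fbxo10, Fbxw17 and Fbxl4 were also called higher against the control, and Fbxo2, Ube2f and Fbxo44 also lower. Both comparisons share the Drosha-null library, and the share of all genes called in both was not computed. The Fbxo44 call was lost with the size factors of DESeq2. Of the 75 genes measured anywhere, 29 had their highest TMM-scaled CPM in the Drosha-null library and 38 their lowest. The same shares over all genes were not computed. This balance depends on the scaling. By total counts the Drosha-null library was above the control for 56 of 75 genes and above the Ter119-low library for 55 of 74.

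Elsewhere in the pathway, the E1 enzymes had 0 of 8 called higher and 1 lower, Drosha-null against control, and a median of 0.09. Uba1, the main ubiquitin E1, had 4259, 5595 and 4477 counts and a ratio of −0.01. Uba7, the E1 of the interferon-induced modifier ISG15, was the lower one, with 540, 315 and 577 counts and a ratio of −1.18 (−1.39 to −0.98). By total counts it was not called and Uba6 was called higher. Of 15 measured SCF core and cullin genes 1 was called higher and 1 lower, with a median of 0.07. By total counts 4 were called higher, Cul7, Cand2, Cul4a and Cul4b, and 0 lower. The background for each list here was 12.4% of all genes called higher and 7.79% lower by TMM. By total counts it was 23.0% and 2.7%. By TMM the higher one was Cul7, which assembles with Fbxw8, with 166, 490 and 170 counts and a ratio of 1.15 (0.90 to 1.42), and the lower one Rnf7. Skp1a (0.07) and Cul1 (−0.17) were near 0. None of the 9 COP9 signalosome genes, which remove Nedd8 from cullins, was called (median −0.16), nor of the 4 ubiquitin genes (median −0.30).

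Of 6 F-box genes with other symbols 1 was called, Skp2, the receptor of the cell cycle inhibitor p27, with 220, 851 and 297 counts and a ratio of 1.54 (1.33 to 1.76). Among 8 E2-like genes Uevld was called higher, with 120, 583 and 166 counts (1.87, 1.59 to 2.17), and Atg10 lower, with 20, 6 and 12 counts (−2.06, −3.75 to −0.78). Aktip, another E2-like gene, had 49, 88 and 23 counts and was called lower in the Ter119-low library (−1.16, −1.96 to −0.43). Of 21 measured SCF substrates 5 were called higher in the Drosha-null library and 1 lower, with a median of 0.12. The higher ones were Cdkn1a, Cdkn1b, Cdkn1c, Ctnnb1 and Nfkbia, and the lower one Rrm2. The call of Nfkbia rests on 12 counts against 2 in the control (1.91, 0.01 to 5.38). Over all genes 12.4% were called higher in the Drosha-null library and 7.79% lower, the background for each list in this paragraph. By total counts 7 substrates were called higher, with Ccne2 and Notch1 added, and 0 lower, beside 23.0% and 2.7%. Cdkn1b, which encodes p27, had 38, 102 and 49 counts (1.01, 0.47 to 1.59). Ctnnb1, which encodes β-catenin, had 1560, 5415 and 1624 counts (1.39, 1.31 to 1.47). Myc had 1956, 1474 and 1770 counts (−0.82, −0.91 to −0.72) and Ccne1 210, 156 and 203 (−0.84, −1.14 to −0.53). Protein was not measured.

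Ratios also varied with gene length in the Drosha-null library. Across the 75 measured genes Spearman's rho between length and the ratio to the control was 0.36, beside 0.31 over all 10769 genes, as a description over genes that share libraries. It was 0.40 over the 47 F-box genes and 0.05 over the 28 Ube2 genes. The 38 genes no longer than the median of 2962 bases had a median ratio of −0.34, with 3 called higher and 5 lower, and the 37 longer ones a median of 0.15, with 3 higher and 0 lower. Over all genes the shorter part had a median of −0.21 and the longer part 0.15. The shorter part held 514 genes called higher and 627 lower, and the longer part 819 and 212. The F-box genes are the longer family, with a median of 3446 bases against 2524.2. The part of length in the difference between the families was not tested.

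**Figure D4:**
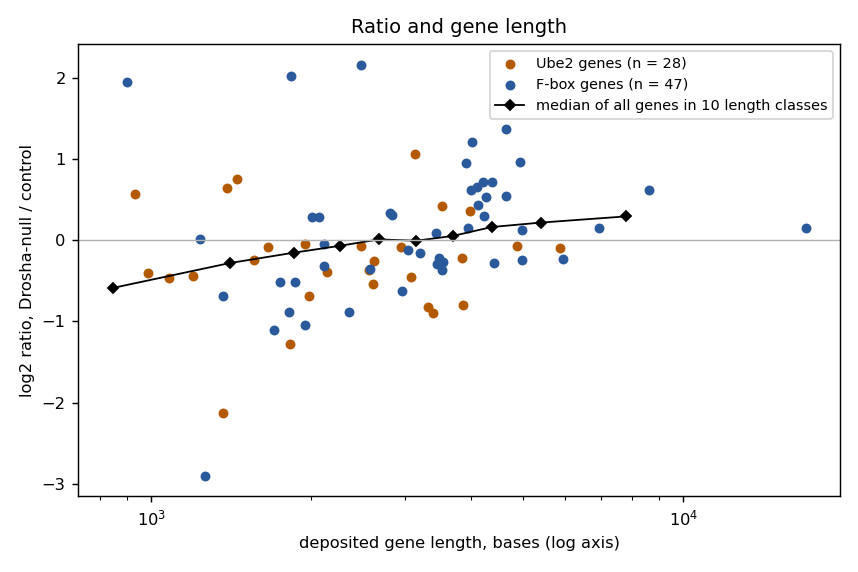
Log2 ratio, Drosha-null over control, against deposited gene length on a log axis for the measured Ube2 (orange) and F-box genes (blue), with the median of all genes in 10 length classes as a black line. The black line climbs with length, and all 5 genes called lower are among the 38 shorter ones. Over all genes, 627 of the 839 called lower were in the shorter part.

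Because Drosha makes microRNAs, the 3' UTRs of these genes were searched for 7-base matches to the seeds (bases 2 to 8) of 4 microRNAs. The sequences are shown because the matches are defined by them, with the seed in capitals, as RefSeq gives them on GRCm38.p6.
mmu-miR-451a: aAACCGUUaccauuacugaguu
mmu-miR-144-3p: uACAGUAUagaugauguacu
mmu-let-7a-5p: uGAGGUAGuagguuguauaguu
mmu-miR-17-5p: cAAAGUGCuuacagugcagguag
The first 2 are neighbouring erythroid microRNAs on chromosome 11, let-7a is widespread, and miR-17 belongs to a cluster on chromosome 14 known for promoting proliferation. The match searched was AACGGTT for miR-451a, ATACTGT for miR-144-3p, CTACCTC for let-7a-5p and GCACTTT for miR-17-5p, on the strand of the RNA alone, and no match of one can overlap a match of another. Each gene was given its longest 3' UTR among the protein-coding transcripts of GENCODE M21 on GRCm38.

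None of the 75 measured genes held a match for miR-451a, beside 2.09% of all 10374 measured genes with a 3' UTR. Matches for miR-144-3p were in 13 of them (17.3%, and 14.5% of all genes), with a median Drosha-null ratio of 0.12 against −0.14 without a match. Over all genes these medians were 0.17 and −0.03. Matches for let-7a-5p were in 6 (8.0%, and 11.1% of all genes), with a median of 0.22 against −0.12 without a match. Over all genes they were 0.12 and −0.02. Matches for miR-17-5p were in 13 (17.3%, and 15.5% of all genes). Of these, 3 were called higher, Fbxl4, Fbxo10 and Ube2w, and 1 lower, Ube2f, which makes 23.1% called higher against 4.84% of those without a match. Over all genes 17.4% with a match and 11.7% without were called higher. The median ratio of the 13 genes was 0.72 against −0.22 for the 62 genes without a match. Over all genes the corresponding medians were 0.19 and −0.04. By total counts the medians of the Ube2 and F-box genes were 1.16 and 0.21, and against genes of like length they were 0.56 and −0.15. In the Ter119-low library they were −0.05 and 0.01. Genes with a match have longer 3' UTRs, with a median of 2126 bases against 1508 here, and 2597 against 1085 over all genes.

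The miR-17-5p matches of the 4 called genes, and of 3 of the others higher within 2-fold, are shown with their flanks. The match is in capitals, to let the site be read beside the seed above.
Fbxl4: atattacaGCACTTTtctttagg
Fbxo10: gacactgaGCACTTTctgccttg
Ube2w: agaaatgaGCACTTTgatcattc
Ube2f: tcgagtagGCACTTTcttattgc
Fbxo21: gtatttggGCACTTTatattttt
Fbxo28: catagcctGCACTTTaacctcca
Fbxw11: cagcctGCACTTTggcccaat
The match lies at bases 177 to 183 of a 3' UTR of 361 bases in Fbxl4, 1093 to 1099 of 1661 in Fbxo10, and 49 to 55 of 1487 in Ube2w. In Ube2f the match shown is at 3185 to 3191 of an annotated UTR of 4982 bases, longer than the deposited gene length of 1363 bases. Another match, not shown, lies at 3847 to 3853. Whether the counted transcript of Ube2f includes these matches is not known. The other measured genes with a match were Fbxl2, Fbxo25, Fbxo31, Fbxo46, Ube2j1 and Ube2q2, with ratios from −0.62 (Fbxo46) to 0.72 (Fbxo31). Of these, Fbxo31, Ube2j1 (0.42) and Fbxo25 (0.29) were also higher within 2-fold, and the others were below 0. A match is a description of letters in an annotated UTR and not of binding, and Fbxo11, Fbxo36 and Fbxw17, called higher, hold none for any of the 4 seeds.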

How the data were processed

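Total RNA of 3 pools of sorted erythroblasts was sequenced, and the authors deposited 2 tables pairing a cKO library with the control. They hold, per the file headers, the authors' expected counts per gene, fractional for some genes, and FPKM values deposited beside them, with 0.001 entered at 0 counts, and a gene length. The build is not given in the sources used here, nor are the aligner, counting program, strand setting and annotation.

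The tables were joined by gene ID (15058 genes, 13882 in both, 0 shared genes with different control counts), a gene missing from 1 table was given 0 counts there, and expected counts were rounded. Scaling was by TMM in edgeR 4.0.16 (R 4.3.3), with factors of 0.885 (control), 1.19 (Drosha-null) and 0.946 (Ter119-low). Each ratio used 0.5 added counts, a 1 CPM minimum in either library, an exact 95% interval and a 2-fold rule, fitted on all genes. The floor of 3 counts came to 0.357, 0.269 and 0.337 CPM. Intervals cover counting error only, because each group had 1 library. Without molecular identifiers reads may be copies of 1 molecule, so the intervals may be too narrow even for counting error. FPKM values were used for levels and as an alternative, in which calls used the 2-fold rule without an interval. DESeq2 1.42.0, SciPy 1.17.1, pandas 2.3.3, NumPy 2.4.6 and matplotlib 3.10.9 under Python 3.11.15 served the rest. The procedure was tested on simulated data.

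Genes were named if called in the Drosha-null comparison with the control, among the 5 firmest calls of each direction in the other comparisons, among the 5 highest of each family by control FPKM, or on a list of 18 genes. Values of some genes so named are not reported here. Further genes, such as Fbxo28, Ube2j1, Ube2j2, Ube2g2, Ube2v2, Ube2d2a, Ube2e1, Ube2e3 and Fbxw8, were added after their values were seen, as were the within-library ratios, the family medians and site medians under each alternative, and the pathway lists under other scalings. The genes and lists were chosen with earlier results of these data known. All 88 genes were located in GENCODE M21 on GRCm38, which the tables do not name as their build.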

Additional observations from a re-analysis of the deposited data

How the results depend on the processing

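No paired analysis was possible because each group had 1 library, and for the same reason no library could be left out. Of 1007 values of the named genes under the 10 alternatives and 3 comparisons, 942 kept their direction and side of the rule, 29 lost a call, 36 gained one and 0 reversed. In Drosha-null against control, the number called higher (6) was 15 by total counts, by FPKM and at 1.5-fold, and 3 with a 5 CPM minimum and at 3-fold. The number called lower (5) was 2 by total counts, by FPKM and at 3-fold, 3 with 5 counts added and against genes of like length, 1 with a 5 CPM minimum and 12 at 1.5-fold. The median (−0.09) was 0.35 by total counts and 0.35 by FPKM. In Ter119-low against control, the number called lower (1) was 0 by total counts and with a 5 CPM minimum, 2 without the minimum and 4 at 1.5-fold. The median (−0.01) was 0.0859 by total counts, 0.0942 by FPKM and 0.0168 with a 5 CPM minimum. Between the cKO libraries, the number called higher (6) was 13 by total counts, 12 by FPKM and at 1.5-fold, and 3 with a 5 CPM minimum and at 3-fold. The number called lower (3) was 1 with a 5 CPM minimum and 9 at 1.5-fold, and the median (−0.05) was 0.28 by total counts, 0.28 by FPKM and 0.0695 against genes of like length. The higher minimum and fold rules change counts by construction, and total counts and FPKM carry no TMM factor. Calls by FPKM also rest on the fold rule without an interval. The cause of the change against genes of like length was not tested. With low counts in the genes called, depth limits most of them: Fbxl4, Fbxo36 and Fbxw17 lay under 5 CPM in both libraries.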
